A study of Mus musculus with 44 samples.

Results

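The genes described here are 35 genes of the cell cycle and of DNA replication, followed across cultured mouse astrocytes and microglia of 4 Apoe genotypes. They were chosen by symbol, through GENCODE M21, as genes that act in S phase or in mitosis, and each symbol matched 1 of the 54146 genes in the count table. The rule itself uses no level of these libraries, but the genes were chosen with earlier results of these data known. Of the 35 genes, 14 act before or during S phase (3 G1/S regulators, 8 origin licensing and helicase genes, 3 genes of DNA synthesis and nucleotide supply) and 21 act in mitosis. All 35 passed the filter on low counts in every comparison.

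The study measured RNA in primary astrocytes and primary microglia purified from mice and grown in media made for the human cells, with no treatment. APOE33 and APOE44 cells carry the human APOE3 or APOE4 allele on both copies, KO cells lack Apoe, and WT cells carry mouse Apoe. Each cell type has 6 WT libraries (3 female, 3 male), 6 APOE33 (4 female, 2 male), 6 APOE44 (3 female, 3 male) and 4 KO (1 female, 3 male). All 12 WT libraries are tagged batch 2 and the other 32 libraries batch 1, so batch and genotype cannot be told apart wherever WT is compared. Neither the age of the mice nor the method of purification is given in the sources used here. Whether replicates came from separate animals or cultures is not in the labels, so p-values measure only the spread between these libraries.

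Cells that divide copy their DNA in S phase and separate the copies in mitosis. Before S phase, CDC6 and CDT1 load the ring-shaped MCM helicase onto origins of replication, and E2F factors such as E2F1 switch on the genes needed for this step, including cyclin E. During S phase PCNA holds DNA polymerases on the template, while ribonucleotide reductase (Rrm2) and thymidylate synthase (Tyms) supply nucleotides. In mitosis cyclin B with CDK1, the Aurora and Polo kinases, the spindle checkpoint and the anaphase promoting complex drive the separation of chromosomes, and the transcripts of these genes peak in G2 and mitosis. MKI67 coats mitotic chromosomes and marks dividing cells. Microglia in culture divide in response to ligands of the CSF1 receptor, and astrocytes taken from young brain also divide in culture.

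The promoters are shown because the S phase and the mitotic genes are known to be switched on through different sequence elements, and the results below differ between these classes. RefSeq promoter windows (GRCm38.p6, 250 bases before to 50 bases after the start) were found for 29 of the 35 genes, with no entry for Ccne2, Mcm4, Ccna2, Aurkb, Kif20a and Tpx2. Mcm7 has 2 windows, so 30 windows were searched on both strands. An E2F site (TTTCCCGC, TTTGGCGC, TTTGCCGC or TTTCGCGC) was present in 6 of 13 windows of S phase genes, which is 46.2%, in 1 of 17 windows of mitotic genes (Cdk1), and in 2.26% of all 32851 windows of the table. The 6 windows belong to Cdc6, Cdt1, Mcm3, Mcm5, Mcm6 and Mcm7. A cell cycle genes homology region, the CHR element (TTTGAA or TTTAAA), was present in 15 of 17 windows of mitotic genes, which is 88.2%, in 30.8% of windows of S phase genes and in 27.6% of all windows. A CCAAT box (CCAAT) was present in 88.2% of windows of mitotic genes, 61.5% of windows of S phase genes and 37.4% of all windows. The stretch of up to 160 bases before the start, outside annotated exons, is printed for 3 S phase and 3 mitotic genes, taken by mean level among those with the element of their class inside that stretch, with E2F sites in capitals in the first 3 sequences and CHR elements in capitals in the last 3. The E2F sites of Cdt1 and Mcm3 lie after the start and those of Mcm7 outside the stretch, so these 3 promoters are not printed although their levels exceed those of Mcm5 and Cdc6. A match describes the letters only.
Mcm6, chr1:128359706-128359865, minus strand: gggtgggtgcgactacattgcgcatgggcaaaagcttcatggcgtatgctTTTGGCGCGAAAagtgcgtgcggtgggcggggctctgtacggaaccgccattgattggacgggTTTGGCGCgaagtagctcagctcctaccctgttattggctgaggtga
Mcm5, chr8:75109349-75109508, plus strand: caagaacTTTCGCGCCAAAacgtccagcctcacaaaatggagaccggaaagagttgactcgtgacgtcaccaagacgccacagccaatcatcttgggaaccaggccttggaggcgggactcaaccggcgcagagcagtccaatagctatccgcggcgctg
Cdc6, chr11:98907991-98908150, plus strand: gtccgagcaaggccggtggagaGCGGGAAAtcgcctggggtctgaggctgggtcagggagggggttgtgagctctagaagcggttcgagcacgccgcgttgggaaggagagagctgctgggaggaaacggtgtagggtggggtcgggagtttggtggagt
Top2a, chr11:99024190-99024349, minus strand: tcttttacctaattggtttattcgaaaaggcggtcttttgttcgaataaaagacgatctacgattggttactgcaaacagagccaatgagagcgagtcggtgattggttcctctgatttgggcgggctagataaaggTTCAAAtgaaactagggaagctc
Mki67, chr7:135716380-135716539, minus strand: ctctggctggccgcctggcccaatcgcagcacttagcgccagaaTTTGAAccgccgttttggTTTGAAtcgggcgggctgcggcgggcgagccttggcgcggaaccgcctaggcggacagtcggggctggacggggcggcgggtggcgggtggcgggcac
Cdk1, chr10:69352939-69353072, minus strand: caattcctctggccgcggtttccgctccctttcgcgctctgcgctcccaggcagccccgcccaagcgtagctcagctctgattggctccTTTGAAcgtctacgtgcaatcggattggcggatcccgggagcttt
In Mcm6 the sites begin 110, 106 and 47 bases before the start, and the first and second overlap on opposite strands. The Mcm5 sites, at 153 and 149 bases, overlap in the same way, and the Cdc6 site begins 138 bases before the start. Within the printed stretch, the CHR element begins 23 bases before the start in Top2a, 116 and 98 bases before it in Mki67 and 71 bases before it in Cdk1. Top2a and Cdk1 each hold a further CHR match outside that stretch. Bub1 and Nusap1 are the mitotic genes with a window but no CHR element.

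Total counts ran from 83239599 to 143150569 per library, and RNA integrity numbers from 8.9 to 10.0. Levels are given in CPM, each count relative to its library's TMM-scaled total. Apoe checked the labels: it stood at 5896 ± 561 CPM (SD, n = 6) in WT astrocytes and 50850 ± 5677 (n = 6) in WT microglia, against 11.4 ± 1.61 and 15.5 ± 9.29 (n = 4 each) in KO. APOE33 and APOE44 means of mouse Apoe lay between 24.2 and 54.6. The summed level of 10 astrocyte markers was 10040 to 15260 CPM in astrocyte libraries and 32.5 to 135.4 in microglia libraries, and that of 10 microglia markers 13380 to 23550 in microglia and 95.5 to 357.6 in astrocytes. In bulk RNA, fewer dividing cells and less of a transcript per dividing cell cannot be told apart.

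**Figure D1:**
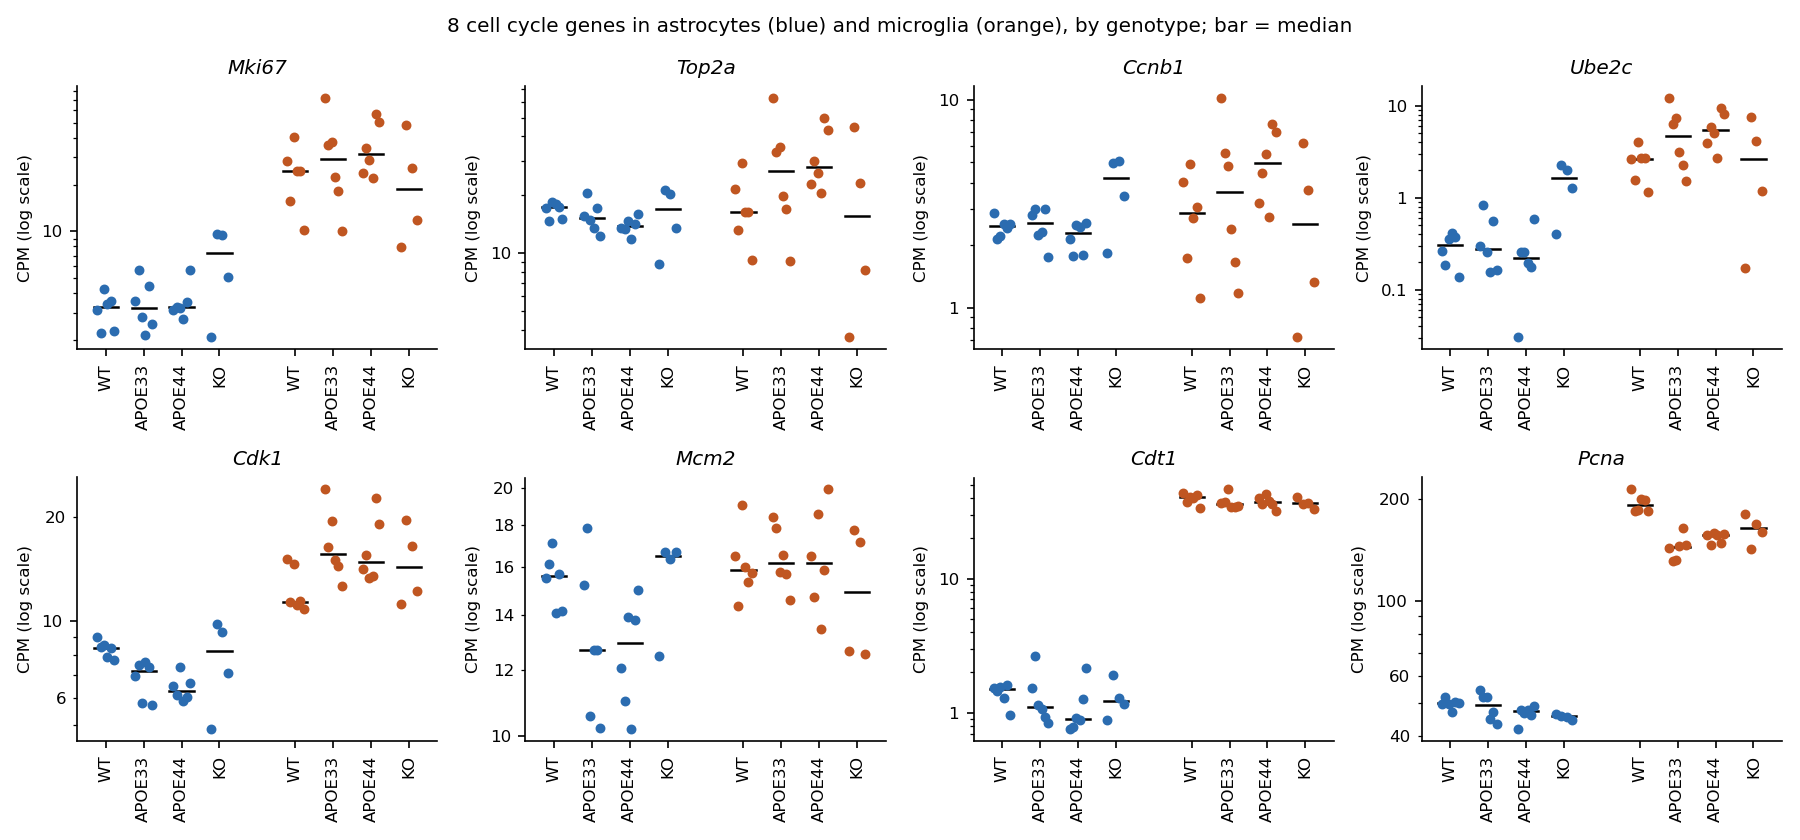
Level in every library (CPM, log axis) of 8 cell cycle genes, by cell type (blue astrocytes, orange microglia) and genotype, with a bar at each group's median. Cdt1 and Pcna of the 2 cell types do not overlap, Mki67 of microglia runs from 7.96 to 71.9 and that of astrocytes from 2.09 to 9.67, and Ube2c spreads most within groups.

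Microglia had more RNA of most of these genes than astrocytes. Over the 32 libraries of batch 1, averaged over APOE33, APOE44 and KO, 29 of the 35 genes were called at an adjusted p under 0.05, 27 higher and 2 lower in microglia, and their median log2 difference was 1.31 beside -0.25 over all 21647 genes tested. The background was high, since 90.9% of all genes were called, 40.3% higher in microglia and 50.6% lower, so the share called says little about these genes and the direction and size carry the comparison. In WT libraries alone, 28 of 35 were called, 25 higher and 3 lower, where 89.5% of all 19331 genes were called (41.6% higher, 47.9% lower), and the median was 0.97 beside -0.13 over all genes.

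Among licensing genes the gap was widest for Cdt1 (ENSMUSG00000006585.3, GRCm38 chr8:122568015-122573554, plus strand), whose product brings the MCM helicase to origins. Across the 4 genotypes Cdt1 ran from 0.759 to 2.64 CPM in astrocytes and from 32 to 46.1 CPM in microglia. No astrocyte library came near a microglia library. Microglia over astrocytes in batch 1 gave a log2 difference of 4.89 (SE 0.17, adjusted p = 1.31e-20 by edgeR's quasi-likelihood test with Benjamini-Hochberg adjustment), a 29.7-fold difference, and WT libraries gave 4.78 (SE 0.10, adjusted p = 2.15e-13).

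The MCM helicase genes did not move as a block, although their products form 1 ring. Mcm3 was 6.96-fold, Mcm5 7.99-fold and Mcm6 4.61-fold higher in microglia of batch 1, with log2 differences of 2.80 (SE 0.08), 3.0 (SE 0.17) and 2.21 (SE 0.05). Mcm2 differed by 0.24 (SE 0.08, adjusted p = 0.00703), and Mcm7 was not called. Mcm4 went the other way, from 22.6 to 30.2 CPM over all astrocyte libraries and 13.5 to 21 in microglia, without overlap, a log2 difference of -0.55 (SE 0.05, adjusted p = 6.01e-11) in batch 1 and -0.71 (SE 0.05) in WT. Per kilobase of exon, the group means of Mcm4 were 7.09 to 7.87 CPM in astrocytes and 4.56 to 5.10 in microglia, while those of Mcm6 were 2.17 to 2.96 in astrocytes and 10.4 to 19.5 in microglia. Mcm4 therefore stood above Mcm6 per kilobase in astrocytes and below it in microglia.

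Pcna (ENSMUSG00000027342.14, GRCm38 chr2:132249162-132253314, minus strand), the sliding clamp of DNA polymerases, had the highest level of the 35 genes per kilobase of exon, with group means of 19.0 to 20.8 CPM per kilobase in astrocytes and 59.8 to 80.9 in microglia. Its log2 difference was 1.73 (SE 0.04, adjusted p = 8.01e-27) in batch 1 and 1.93 (SE 0.04) in WT. Rrm2, the small subunit of ribonucleotide reductase, was lower in microglia by 1.16 in log2 terms (-1.16, SE 0.24, adjusted p = 5.47e-05), although its libraries overlapped, from 6.73 to 17.1 CPM in astrocytes and 1.09 to 13.1 in microglia. E2f1, the transcription factor of the G1/S step, was higher in microglia by 0.64 (SE 0.06) in batch 1 and 0.60 in WT.

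Of the 21 mitotic genes, 17 were called higher in microglia of batch 1 and none lower. Mki67 (ENSMUSG00000031004.8, GRCm38 chr7:135689784-135716361, minus strand) was 2.24 to 4.29 CPM (median 3.26) in WT astrocytes and 10.2 to 40.5 (median 24.4) in WT microglia. Only KO overlapped for Mki67, with microglia at 7.96, 48.2, 25.4 and 11.9 CPM in replicates 1 to 4 and astrocytes at 2.09, 9.67, 9.43 and 5.07. The log2 difference was 2.81 (SE 0.30, adjusted p = 1.4e-09) in batch 1 and 2.84 (SE 0.24, adjusted p = 4.58e-07) in WT. Ube2c, the ubiquitin-conjugating enzyme of the anaphase promoting complex, gave 3.17 (SE 0.43), the checkpoint kinase Bub1 3.16 (SE 0.33) and Aurora kinase B (Aurkb) 2.97 (SE 0.25) in batch 1. All 6 mitotic kinase and checkpoint genes were called higher in both batches.

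Some genes that peak in mitosis were much closer between the cell types. Top2a, the topoisomerase that untangles chromosomes, was 14.7 to 18.3 CPM (median 17.2) in WT astrocytes and 9.21 to 29.0 (median 16.3) in WT microglia. Its log2 difference was 0.83 (SE 0.27, adjusted p = 0.00507) in batch 1, and it was not called in WT. Ccnb1, cyclin B1, was not called in either batch (0.56, SE 0.28, adjusted p = 0.0621, and 0.15, adjusted p = 0.523). Kif11 and Tpx2, which build the bipolar spindle, were called in neither batch. Nusap1, a spindle-associated protein, was not called in batch 1 and was lower in WT microglia by a log2 difference of -1.09 (SE 0.15, adjusted p = 1.26e-05).

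**Figure D2:**
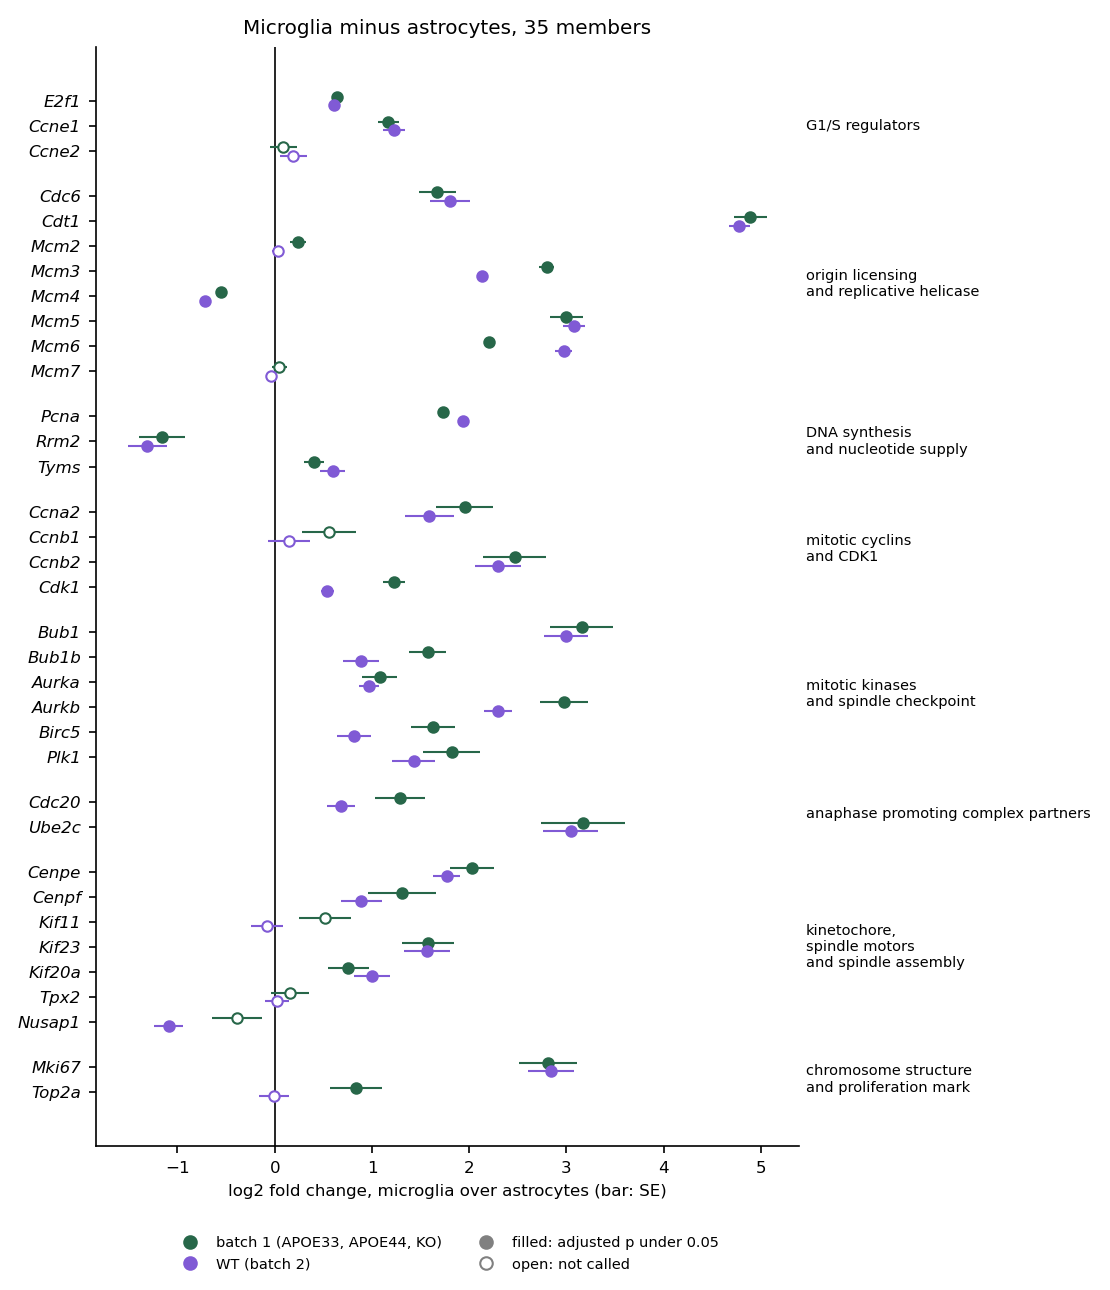
Log2 difference of microglia over astrocytes for each of the 35 genes, with its SE, in the 32 libraries of batch 1 (green) and the 12 WT libraries of batch 2 (purple); filled points were called at an adjusted p under 0.05. Cdt1 lies farthest to the right at 4.89 and 4.78, and Mcm4 and Rrm2 lie to the left of 0 in both.

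Other cell cycle genes outside the 35 were followed in 7 lists of 109 genes. In microglia of batch 1, 24 of 30 other mitotic genes were called higher and 5 lower, with a median of 1.42, and 18 of 30 replication fork and origin genes higher and 10 lower, with a median of 0.54, beside -0.25 and 90.9% called over all genes. Incenp, the scaffold of Aurora kinase B, differed by 2.68 (SE 0.05), and Ncaph, a condensin subunit, by 3.11 (SE 0.15). Of 8 CDK inhibitor genes, 2 were called higher and 5 lower, with a median of -0.59. Cdkn1b (p27) was lower by 2.5 in log2 terms (-2.5, SE 0.04) and Cdkn1c (p57) by 3.69 (-3.69, SE 0.21), while Cdkn1a (p21) was higher by 1.45 (SE 0.07). Of 13 other E2F and DREAM factors, 9 were called higher and 3 lower, and Lin52, a subunit of the complex that binds CHR elements, differed by -3.63 (SE 0.04).

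Between libraries of the same genotype, the median spread of these genes exceeded that of all genes with a mean of at least 1 CPM. The 2 sets were not matched for level. Some of the 35 genes lie under that mean in astrocytes, such as Cdc6 at 0.215 to 0.713 CPM, so the part of low level in their spread was not tested. The SD of log2 levels within genotypes had a median of 0.108 over all genes with a mean of at least 1 CPM, in each cell type. Over the 35 genes the median was 0.306 in astrocytes (0.0869 to 0.740) and 0.585 in microglia (0.101 to 1.15). In microglia the median SD was 0.919 for mitotic cyclins with Cdk1, 0.952 for the partners of the anaphase promoting complex and 0.169 for licensing genes. Pcna, with an SD of 0.101, E2f1 with 0.109, Mcm3 with 0.142 and Cdt1 with 0.145 lay near the all-gene median in microglia, while Ube2c had 1.15 and Cenpf, a kinetochore protein, 1.06. Cdt1 was the less steady gene in astrocytes, with 0.466 at its far lower level.

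The range within single groups shows the same thing on the linear scale. Ube2c of microglia differed 3.48-fold to 43.9-fold between the highest and lowest library of a genotype, Top2a 2.43-fold to 12.1-fold and Mki67 2.56-fold to 7.16-fold. The same ratio for Pcna was 1.09 to 1.27 in microglia and 1.04 to 1.26 in astrocytes.

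**Figure D3:**
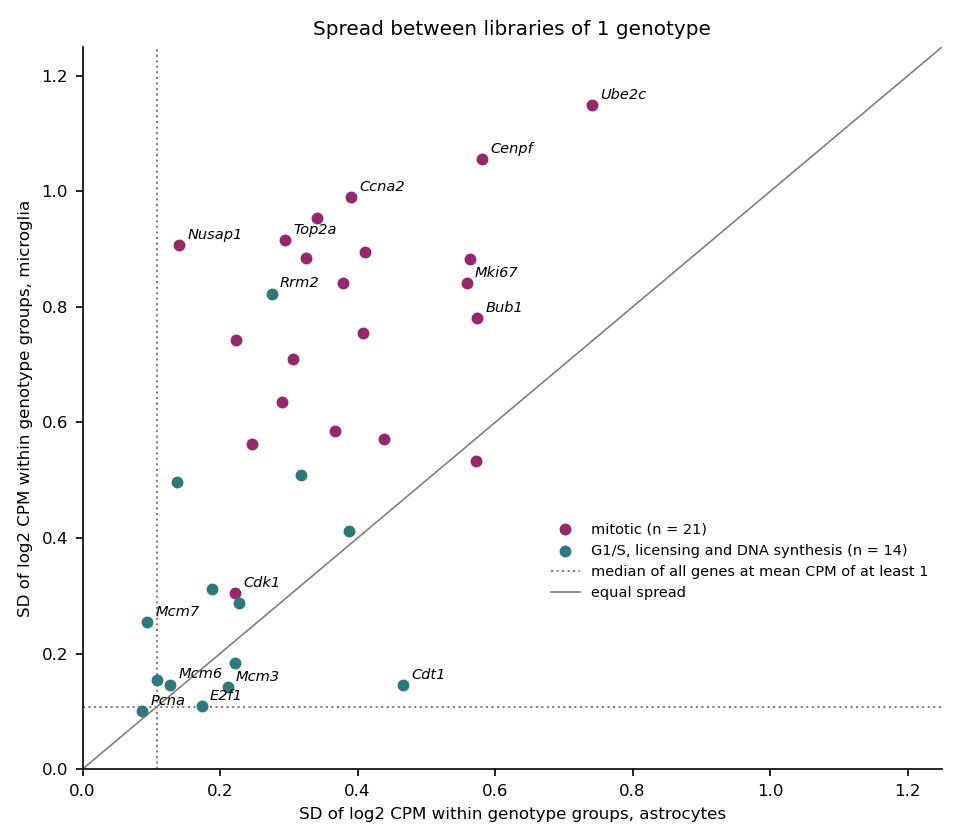
SD of log2 level within genotypes in astrocytes (horizontal) and microglia (vertical) for the 21 mitotic genes and the 14 S phase genes. Dotted lines mark the median over all genes with a mean of at least 1 CPM (0.108 in each cell type), and the diagonal marks equal spread. Mitotic genes lie mostly above the diagonal, and Pcna and E2f1 lie near the dotted lines in microglia.

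The mitotic genes moved together from library to library. Over the 22 microglia libraries, with each genotype's mean removed, all 210 pairs of mitotic genes correlated at r over 0.8 (median 0.96, range 0.83 to 0.99). In astrocytes the median was 0.72 (range 0.15 to 0.96), and 52 of 210 pairs passed 0.8. These correlations are a description: the libraries share depth scaling, and genes are not independent replicates. The median r with the mitotic genes of microglia was 0.97 for Rrm2, 0.95 for Mcm7, 0.89 for Mcm5, 0.86 for Ccne2, 0.83 for Cdc6 and Mcm4, 0.80 for Tyms, 0.78 for Mcm3, 0.77 for Ccne1 and 0.73 for Mcm2. It was lower for the other 4 S phase genes, at 0.46 for Mcm6, 0.17 for Cdt1, -0.02 for E2f1 and -0.45 for Pcna. The genes whose level ran most like the mean of the 35 in microglia were Pclaf (r = 0.984), Knstrn (0.983), Knl1 (0.982), Prr11 (0.978), Aspm (0.977), Stil (0.976), Kif22 (0.975) and Cdca2 (0.975), over 22 libraries. In astrocytes they were Pi15 (0.962), Slc12a8 (0.941), Samhd1 (0.941), Rarres2 (0.929), Aspm (0.925), Lsp1 (0.923), Sostdc1 (0.920) and Kcnn3 (0.920).

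The same libraries were high or low for nearly every mitotic gene. Microglia APOE33 replicate 1 was the highest of its 6 libraries and replicate 6 the lowest for 21 of 21 mitotic genes, with Mki67 at 71.9 and 10.0 CPM. In WT microglia replicate 3 was highest and replicate 6 lowest for 20 of 21, and in APOE44 microglia replicate 5 was highest and replicate 4 lowest for 19 of 21. In astrocytes, APOE44 replicate 6 was highest for 17 and APOE33 replicate 2 for 14 of 21 genes. Both of these astrocyte libraries also had more marker RNA of other cell types. The oligodendrocyte lineage list summed to 179.8 CPM in APOE44 replicate 6 and 131.7 in APOE33 replicate 2, against 84.5 to 113.8 in the other libraries of these genotypes, and the microglia list to 335.1 and 357.6 against 95.5 to 227.1. Pdgfra, which defines oligodendrocyte precursors, was 31.6 and 19.7 CPM there and at most 12.4 in the others, and the part of these cells in the mitotic levels was not tested.

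Astrocyte and microglia libraries that carry the same genotype and replicate number tended to deviate the same way. For Mki67, log2 deviations from the genotype mean had the same sign in 19 of 22 such pairs (r = 0.69, Spearman's rho = 0.70, n = 22). Within batch 1 the values were r = 0.65 and rho = 0.68 (n = 16), within batch 2 r = 0.91 and rho = 0.77 (n = 6), and without the 2 pairs farthest from the astrocyte median r = 0.57 and rho = 0.62 (n = 20). In KO replicate 1 Mki67 deviated by -1.38 in astrocytes and -1.20 in microglia, and in KO replicate 2 by 0.78 and 1.38. In APOE33 replicate 5 the signs differed, at 0.40 and -0.58. All 22 pairs share sex. The labels do not say that a number marks the same mouse or litter, and the cell types were scaled together, so the relation is given as a description.

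**Figure D4:**
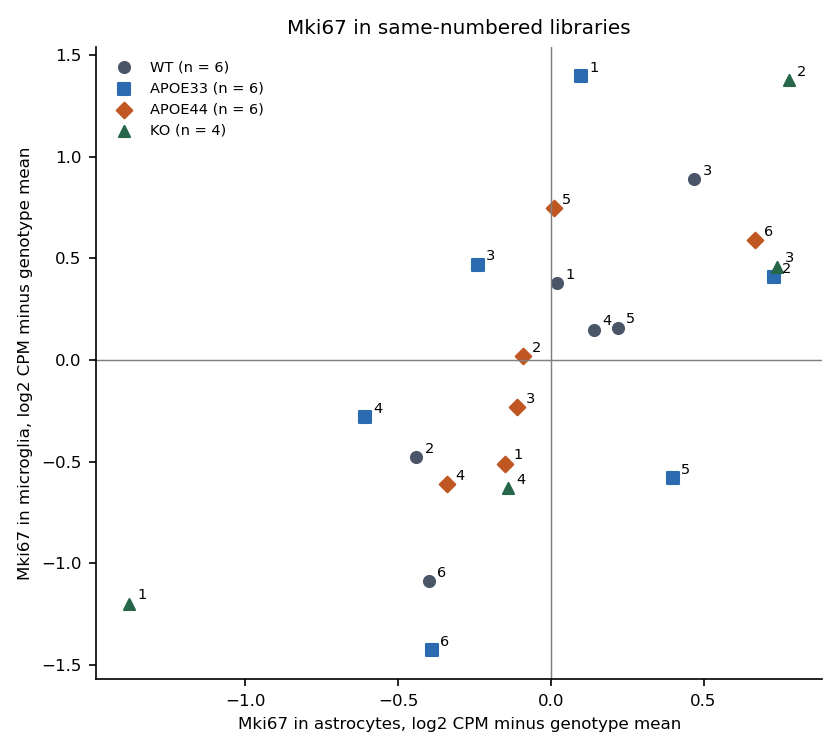
Deviation of Mki67 from its genotype mean (log2) in astrocyte libraries (horizontal) and in the microglia library of the same genotype and replicate number (vertical); markers give the genotype and digits the replicate number. Of 22 points, 19 lie at the lower left or upper right of the crossing of the zero lines, with KO 1 at -1.38 and -1.20.

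APOE44 against APOE33 moved none of the 35 genes past the threshold in either cell type. In astrocytes 0 of 35 were called by edgeR and 0 by DESeq2, 0 had an unadjusted p under 0.05, where 0.703% of all genes were called and 9.91% had an unadjusted p under 0.05. In microglia 0 of 35 were called by edgeR and 0 by DESeq2, 0 had an unadjusted p under 0.05, where 0.84% of all genes were called and 11.9% had an unadjusted p under 0.05. The fitted log2 differences ran from -0.79 to 0.19 in astrocytes (29 of 35 below 0, median -0.14 beside 0.00 over all genes) and from -0.12 to 0.22 in microglia (23 of 35 above 0, median 0.05 beside 0.00).

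Mki67 was 2.16 to 5.63 CPM (median 3.21) in APOE33 astrocytes and 2.74 to 5.62 (median 3.26) in APOE44 astrocytes, a log2 difference of 0.01 (SE 0.34, adjusted p = 0.996). In microglia it was 10.0 to 71.9 (median 29.2) and 22.1 to 56.5 (median 31.4), a difference of 0.11 (SE 0.52, adjusted p = 0.958). The groups overlapped in each cell type, so no difference was detectable over this spread. Pcna differed by -0.07 (SE 0.05, adjusted p = 0.692) in astrocytes and 0.11 (SE 0.05, adjusted p = 0.464) in microglia, and Cdt1 by -0.23 (SE 0.31) and -0.01 (SE 0.08). Top2a differed by -0.20 (SE 0.18) and 0.06 (SE 0.57), Ccnb1 by -0.21 (SE 0.21) and 0.18 (SE 0.60), Cdk1 by -0.12 (SE 0.14) and -0.08 (SE 0.20), and Mcm2 by -0.06 (SE 0.14) and -0.01 (SE 0.11). The difference of the APOE44 effect between microglia and astrocytes was called for 0 of 35 genes by edgeR and 0 by DESeq2, with 1 at an unadjusted p under 0.05, where 0.296% of all genes were called and 11.4% had an unadjusted p under 0.05.

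Among the 109 other cell cycle genes, 1 was called in astrocytes and 3 in microglia, where 0.703% and 0.84% of all genes were called. In astrocytes only Spc25, a subunit of the NDC80 kinetochore complex, was called, at 10.4 to 17.5 CPM in APOE33 and 6.91 to 9.65 in APOE44, without overlap (log2 -0.75, SE 0.13, adjusted p = 0.00943). In microglia the condensin II subunit Ncapg2 was 66.2 to 73.7 CPM in APOE33 and 9.97 to 13.8 in APOE44 (log2 -2.66, adjusted p = 1.08e-12), and 97.0 to 109 in KO. Ncapg2 in astrocytes stayed between 14 and 21.5 CPM in these 3 genotypes. Its difference between APOE44 and APOE33 was not the same in the cell types (-2.87, adjusted p = 1.09e-15 by edgeR's interaction test). Whether the APOE allele or another difference of the APOE44 mice underlies this was not tested. The retinoblastoma gene Rb1 (0.14, adjusted p = 0.0330) and the p53 target Bbc3 (-0.34, adjusted p = 0.0328) were the other calls in microglia.

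In astrocytes, KO against APOE33 gave as many calls among these genes as among genes in general: 6 of 35 were called, 5 higher and 1 lower, where 17.2% of all genes were called (8.37% higher, 8.83% lower). The 5 higher calls were lost with no filter on low counts and without KO replicate 2 or 3, while Mcm6, the lower call, was kept. The fitted difference was above 0 for 26 of 35 genes, and the median was 0.27 beside 0.00 over all genes. All 5 higher genes are mitotic: 2 of 4 in the group of mitotic cyclins and Cdk1, 2 of 6 kinase and checkpoint genes and 1 of 2 partners of the anaphase promoting complex. None of the 7 kinetochore and spindle genes was called, and of the 14 S phase genes only Mcm6 was.

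Ube2c (ENSMUSG00000001403.13, GRCm38 chr2:164769898-164778822, plus strand) was 0.155 to 0.835 CPM (median 0.279) in APOE33 astrocytes and 0.402, 2.27, 1.99 and 1.26 in KO replicates 1 to 4. KO replicates 2, 3 and 4 lay above every APOE33 library, and replicate 1 lay among them. The log2 difference was 2.35 (SE 0.71, adjusted p = 0.0363). Ccnb2 (ENSMUSG00000032218.7, GRCm38 chr9:70407692-70421547, minus strand), cyclin B2, was 0.245 to 0.935 (median 0.338) in APOE33 and 0.499, 2.01, 2.13 and 1.56 in KO. Its pattern was that of Ube2c, with a log2 difference of 1.64 (SE 0.50, adjusted p = 0.0359).

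Bub1 (ENSMUSG00000027379.13, GRCm38 chr2:127801122-127831865, minus strand) was 0.168 to 0.643 CPM (median 0.237) in APOE33 astrocytes and 0.298, 1.19, 1.49 and 0.741 in KO, and rose by 1.77 (SE 0.58, adjusted p = 0.0482). Ccna2 (ENSMUSG00000027715.9, GRCm38 chr3:36564865-36572150, minus strand), cyclin A2, which acts in S phase and early mitosis, was 1.01 to 1.87 in APOE33 and 1.30, 3.07, 3.08 and 2.25 in KO, and rose by 0.81 (SE 0.27, adjusted p = 0.0486). Birc5 (ENSMUSG00000017716.15, GRCm38 chr11:117849251-117855743, plus strand), survivin of the chromosomal passenger complex, was 0.750 to 1.22 in APOE33 and 1.19, 1.48, 1.80 and 1.22 in KO, and rose by 0.58 (SE 0.19, adjusted p = 0.0438). KO replicate 1 was the lowest KO library for all of these genes.

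Mcm6 (ENSMUSG00000026355.11, GRCm38 chr1:128331590-128359664, minus strand), whose promoter holds 3 E2F matches, went the other way. It was 11.2 to 15.3 CPM (median 13.6) in APOE33 astrocytes and 9.33, 10.6, 10.8 and 9.72 in KO, so that all 4 KO libraries lay below all 6 APOE33 libraries. It fell by 0.42 in log2 terms (-0.42, SE 0.09, adjusted p = 0.00482).

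The best-known proliferation marks were not called in KO against APOE33 astrocytes. Mki67 was 2.16 to 5.63 CPM in APOE33 and 2.09, 9.67, 9.43 and 5.07 in KO, a difference of 0.86 (SE 0.43, adjusted p = 0.180). Ccnb1 gave 0.56 (SE 0.26, adjusted p = 0.147), Top2a -0.06 (SE 0.22, adjusted p = 0.874) and Cdk1 0.12 (SE 0.16, adjusted p = 0.661). For the S phase genes, Pcna gave -0.10 (SE 0.06, adjusted p = 0.250), Mcm2 0.23 (SE 0.16, adjusted p = 0.342) and Cdt1 0.06 (SE 0.38, adjusted p = 0.927).

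Which KO libraries were used decided these counts. The share of all genes called in fits that left out 1 library is not given, here or below. Counts from those fits are therefore not read as particular to these genes. KO replicate 1, the only female KO library of each cell type, was the lowest of the 4 astrocyte KO libraries for 29 of the 35 genes and for 20 of the 21 mitotic genes. Without it 13 genes were called, 12 higher, all of them mitotic, and 1 lower, Mcm6, and the median over the 35 genes was 0.56. Mki67 was then higher by 1.42 (SE 0.32, adjusted p = 0.0176), Ccnb1 by 0.98 (SE 0.20, adjusted p = 0.00892) and Ube2c by 3.10 (SE 0.60, adjusted p = 0.00902). Without KO replicate 2 or without KO replicate 3, only Mcm6 was called, and without KO replicate 4 only Mcm6 and Birc5. Leaving out APOE33 replicate 1, 3 or 6 also left 1 call, and leaving out APOE33 replicate 4 left 3. Mcm6 was called in each of the 10 fits that left out 1 library. With no filter on low counts, the adjusted p-values of the 5 mitotic genes were between 0.0587 and 0.0988.

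Marker lists of other cells gave the following values in the same libraries. The 10 microglia markers summed to 281.9, 329.7, 169.8 and 236.3 CPM in astrocyte KO replicates 1 to 4, against 113.1 to 357.6 in APOE33, with all 10 above 0 in log2 difference and 1 called. All 4 sums lay within the APOE33 range. The oligodendrocyte lineage list summed to 88.0 to 101.7 CPM against 84.5 to 131.7 in APOE33, with 4 of 8 genes above 0 and 2 called lower. Pdgfra was 0.648 to 1.41 CPM in KO against 2.66 to 19.7, and Sox10 0.0298 to 0.180 against 0.451 to 2.69, both without overlap. Olig1 (44.8 to 66.1 against 41.3 to 63.8) and Olig2 (9.64 to 12.5 against 7.88 to 13.5) overlapped. The fibroblast and mural list summed to 132.7, 288.6, 298.4 and 210.4 against 273.9 to 357.3 in APOE33, nearly all of it Acta2 and Pdgfrb. Acta2 was 55.3, 142.9, 152.0 and 94.8 CPM in KO against 153.0 to 239.7. Pdgfrb was 75.2, 141.9, 143.1 and 112.7 against 95.9 to 116.2. Col1a1, Col3a1, Dcn, Lum and Rgs5 were under 1 CPM in all of these libraries. The endothelial list, nearly all of it Kdr, summed to 1.59, 7.32, 7.48 and 8.77 CPM, with Pecam1 at 0.13 or less. The neuron list, nearly all of it Map2, summed to 201.8 to 221.7 CPM against 155.6 to 238.9, with Rbfox3 and Snap25 at 0 in all KO libraries. The neural progenitor list, nearly all of it Nes and Sox2, summed to 407.0 to 442.8 against 490.8 to 589.0. Its 3 markers that passed the low-count filter were all called lower. Whether cells of these lists were present, and their part in the mitotic levels, was not tested.

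KO against APOE44 in astrocytes uses the same 4 KO libraries, so its values are given side by side with those above and not as a second test. Of 35 genes, 11 were called, 10 higher and 1 lower, where 22.7% of all genes were called (11.0% higher, 11.8% lower), with a median of 0.35 beside 0.01 over all genes. Ube2c differed by 2.86 (SE 0.68, adjusted p = 0.00851), Bub1 by 2.56 (SE 0.55, adjusted p = 0.00386), Ccnb2 by 2.05 (SE 0.45, adjusted p = 0.00491) and Ccna2 by 1.27 (SE 0.26, adjusted p = 0.00244). Cdc20, the activator of the anaphase promoting complex, rose by 1.18 (SE 0.30, adjusted p = 0.0108). Kif20a, a kinesin of cytokinesis, was 1.24 to 1.62 CPM in APOE44 and 1.64, 3.70, 3.38 and 2.72 in KO, without overlap, and rose by 1.00 (SE 0.22, adjusted p = 0.0039).

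Mcm6 was 12.6 to 15.8 CPM (median 13.7) in APOE44 astrocytes, above all 4 KO libraries, and was lower in KO by 0.46 in log2 terms (-0.46, SE 0.08, adjusted p = 0.00119). Among the other S phase genes Mcm5 (0.87, SE 0.26, adjusted p = 0.0249), Mcm3 (0.45, SE 0.15, adjusted p = 0.0349) and cyclin E1, Ccne1 (0.57, SE 0.19, adjusted p = 0.0364), rose, as did Ccnb1 (0.77, SE 0.24, adjusted p = 0.0319). Mki67 was not called (0.85, SE 0.40, adjusted p = 0.139), nor were Mcm2, Cdk1, Cdt1, Top2a and Pcna, with differences of 0.29, 0.23, 0.30, 0.14 and -0.03. Without KO replicate 1, 20 genes were called, 19 of them higher, and without KO replicate 2, KO replicate 3 or APOE44 replicate 5, 7 were.

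**Figure D5:**
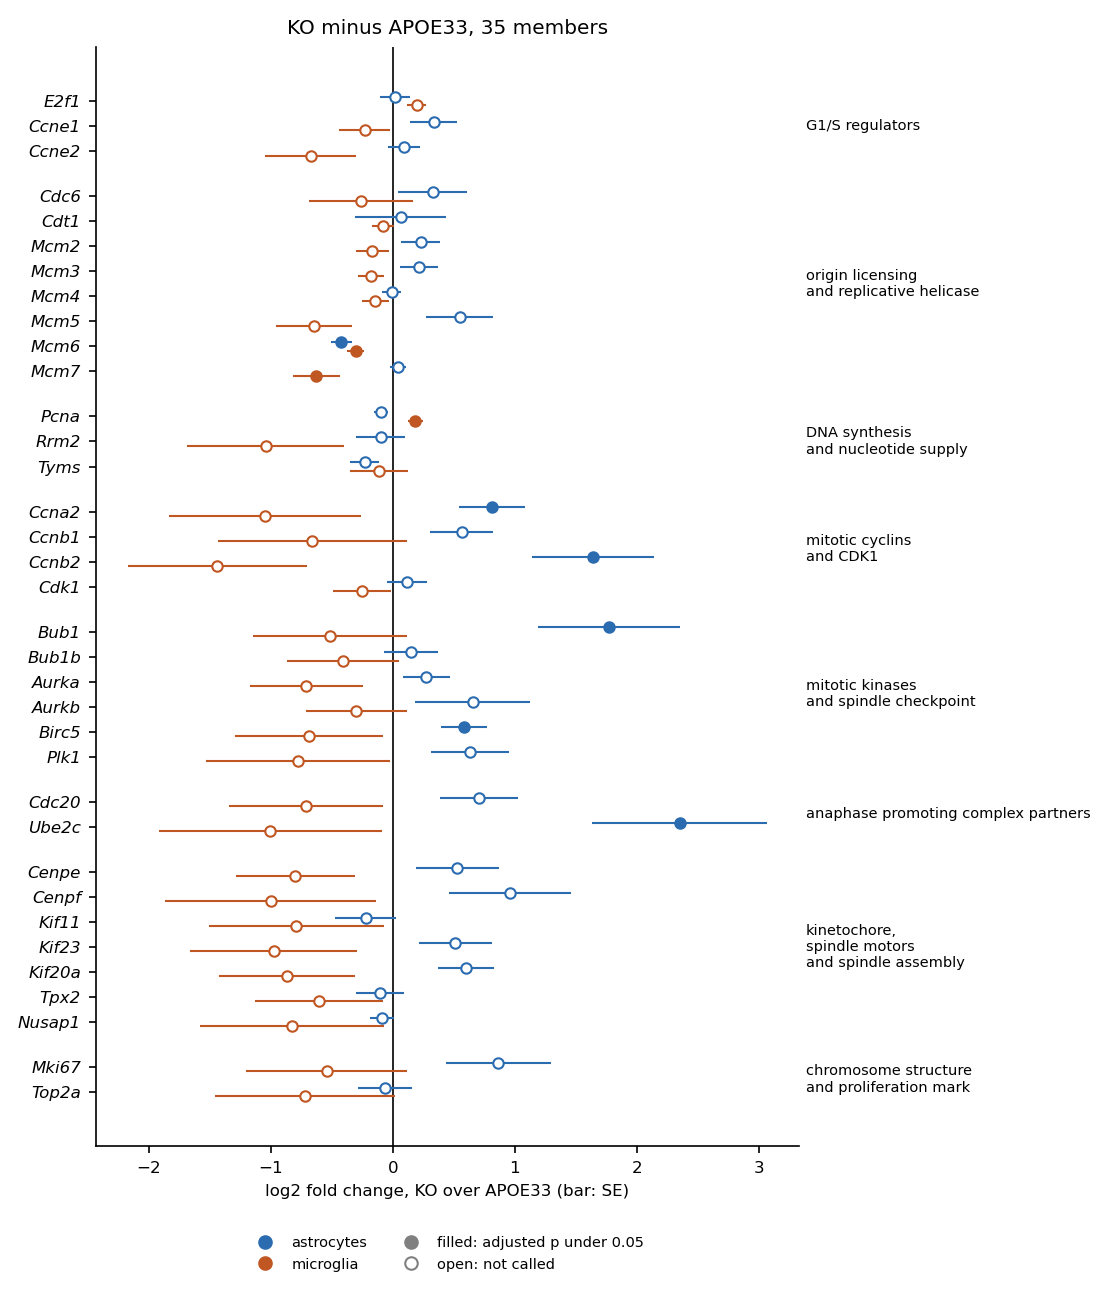
Log2 difference of KO over APOE33 for the 35 genes, with its SE, in astrocytes (blue) and microglia (orange); filled points were called at an adjusted p under 0.05. Most mitotic genes lie right of 0 in astrocytes and left of 0 in microglia with wide SEs, and Mcm6 lies left of 0 in both, at -0.42 and -0.30.

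In microglia, most of the 35 genes were lower in KO than in APOE33, but few passed the test. Of 35 genes, 3 were called, 1 higher and 2 lower, where 22.7% of all genes were called (10.9% higher, 11.9% lower), so fewer of these genes were called than of genes in general. The fitted difference was below 0 for 33 of 35 genes, with a median of -0.65 beside -0.02 over all genes. No mitotic gene was called. Mki67 was 10.0 to 71.9 CPM (median 29.2) in APOE33 microglia and 7.96, 48.2, 25.4 and 11.9 in KO, with overlap and a log2 difference of -0.54 (SE 0.66, adjusted p = 0.615).

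Top2a was 9.08 to 63.1 CPM (median 26.5) in APOE33 microglia and 3.68, 44.4, 23.0 and 8.18 in KO, a difference of -0.72 (SE 0.74, adjusted p = 0.543). Ccnb1 gave -0.66 (SE 0.78, adjusted p = 0.603), Cdk1 -0.25 (SE 0.23, adjusted p = 0.493), Mcm2 -0.17 (SE 0.13, adjusted p = 0.410) and Cdt1 -0.08 (SE 0.09, adjusted p = 0.597). KO replicate 1 was lowest for 28 and KO replicate 2 highest for 32 of the 35 genes. The median over the 35 genes was -0.17 without KO replicate 1 and -0.99 without KO replicate 2.

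The 3 calls in KO microglia are S phase genes, and Mcm7 varied more within genotypes (SD of log2 levels 0.254) than Pcna (0.101). Mcm6 was 52.4 to 64.4 CPM (median 58.6) in APOE33 and 46.8, 51.2, 48.8 and 47.6 in KO, without overlap, and fell by 0.30 in log2 terms (-0.30, SE 0.07, adjusted p = 0.00456). Mcm7 (ENSMUSG00000029730.16, GRCm38 chr5:138164583-138172422, minus strand) was 15.5 to 24.2 CPM in APOE33 and 9.12, 17.9, 16.1 and 11.2 in KO. KO replicates 2 and 3 lay within the APOE33 range and replicates 1 and 4 below it, and Mcm7 fell by 0.63 (-0.63, SE 0.19, adjusted p = 0.0304). Pcna was 131 to 164 CPM (median 144) in APOE33 and 180, 142, 168 and 160 in KO, and rose by 0.19 (SE 0.06, adjusted p = 0.0446).

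Only Mcm6 was called in all 10 fits that left out 1 library and with no filter on low counts. Without KO replicate 1 or without KO replicate 4, Mcm6 was the only call, and without KO replicate 2 there were 5, namely Mcm6, Mcm7, Pcna, Mcm5 (-0.93) and Mcm4 (-0.27). In KO against APOE44 microglia, which shares the KO libraries, 2 of 35 were called, both lower, where 26.9% of all genes were called (13.4% lower). They were Mcm6, at 57.2 to 65.9 CPM in APOE44 and above all KO libraries (-0.35, SE 0.07, adjusted p = 0.00102), and Mcm7 (-0.60, SE 0.18, adjusted p = 0.0261). Pcna gave 0.08 (adjusted p = 0.371) and Mki67 -0.65 (SE 0.61, adjusted p = 0.467). There, 1 gene was called without APOE44 replicate 5, KO replicate 1 or KO replicate 4, and 5 without KO replicate 2.

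The astrocyte markers summed to 135.4, 91.2, 91.3 and 121.2 CPM in KO microglia replicates 1 to 4 and 32.5 to 86.4 in APOE33 microglia. Most of the KO sums was Aldoc, at 39.3 to 57.9 CPM against 12.5 to 21.6 in APOE33, and Aldh1l1, at 26.8 to 34.6 against 5.18 to 12.2. Slc1a3, Slc1a2 and Aqp4 lay within the APOE33 range in all KO libraries, but APOE33 replicate 2 alone set its top, at 20.11, 8.52 and 9.33 CPM. The other APOE33 libraries reached at most 3.96, 1.32 and 2.30. KO replicates 1 and 4 lay above these for Slc1a3 (4.27 and 4.96) and Aqp4 (4.30 and 4.81), and KO replicate 1 for Slc1a2 (1.56). KO replicates 2 and 3 did not for any of these genes. Gfap lay within it in KO replicates 2 and 3 and above it in 1 and 4. Of the 10 astrocyte markers 2 were called higher and 0 lower. The microglia markers summed to 18370 to 19270 CPM in KO against 20320 to 23550 in APOE33. The oligodendrocyte lineage list summed to 172.5 to 210.2 CPM against 195.2 to 296.3, most of it Cspg4 and Mbp. Both genes were higher in every microglia library than in any astrocyte library. Cspg4 was 37.3 to 77.6 CPM in KO and 71.8 to 152.0 in APOE33, and Mbp was 128.1 to 134.6 and 119.6 to 132.2. Over the 8 genes of this list the median log2 difference was -2.73, with 1 above 0 and 3 called lower. The part of these differences in the levels above was not tested.

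The KO effect differed between the cell types for 3 of the 35 genes, where 12.7% of all genes differed. Ccnb2 rose in KO astrocytes and did not pass in KO microglia, and the difference of the effects was -3.09 (SE 0.93, adjusted p = 0.0264). For Mcm7 it was -0.68 (SE 0.20, adjusted p = 0.0250) and for Pcna 0.28 (SE 0.09, adjusted p = 0.0440). The difference for Ube2c (-3.36, SE 1.22, adjusted p = 0.0699) and for Mki67 (-1.42, SE 0.82, adjusted p = 0.282) did not pass. The fitted difference was below 0 for 31 of 35 genes, with a median of -0.77 beside -0.03 over all genes. Without microglia KO replicate 1 or KO replicate 4 no gene was called, without microglia KO replicate 2 there were 13, without microglia APOE33 replicate 6 there were 8, and without replicate 3 of APOE33 in astrocytes or in microglia there was 1. Same-numbered astrocyte and microglia libraries correlated over 0.1 in 4 of 4 KO pairs and 4 of 6 APOE33 pairs. With the number as a block 10 genes were called, all lower, among them Ccnb2 (-3.08, adjusted p = 0.0115) and Mcm7 (-0.71, adjusted p = 0.0119), and Pcna was not called (0.27, adjusted p = 0.132). The share of all genes called with the block is not given, so this count is not read as particular to these genes.

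The other cell cycle lists are read against the share of all genes called. In KO against APOE33 astrocytes, where 17.2% of all genes were called (8.37% higher, 8.83% lower), 2 of 30 other mitotic genes were called higher and 2 lower, with a median of 0.24, which is no more than that share. Hmmr, a spindle protein and hyaluronan receptor, was 0.299 to 1.28 CPM in APOE33 and 0.641, 2.97, 3.16 and 2.07 in KO, and rose by 1.91 (adjusted p = 0.0246). The chromosome-binding kinesin Kif4 fell by 0.77 (-0.77, adjusted p = 0.00409), at 5.41 to 9.34 CPM in APOE33 and 3.70, 5.37, 4.71 and 3.79 in KO, without overlap, and the checkpoint gene Bub3 fell by 0.18 (-0.18, adjusted p = 0.00433). The same holds for the 30 fork and origin genes, of which 3 were called higher and 1 lower (median 0.01), with Orc1, an origin recognition subunit, at 0.77 (adjusted p = 0.0206) and the helicase activator Cdc45 at -0.40 (adjusted p = 0.0136). Of 8 CDK inhibitors 2 were called, both lower, Cdkn1b at -0.22 (adjusted p = 0.0331) and Cdkn1c at -1.24 (adjusted p = 0.0371). Cyclin D1, Ccnd1, was 225.8, 575.9, 681.1 and 569.5 CPM in KO astrocytes and 174.2 to 283.7 in APOE44 (1.11, adjusted p = 0.0230), with KO replicate 1 again the lowest. In KO against APOE33 astrocytes the D cyclin and RB list had 0 higher and 1 lower of 10, the E2F and DREAM list 2 higher of 13 (E2f6 at 0.32 and E2f3 at 0.15), the condensins 1 higher and 2 lower of 8, and the p53 targets 1 higher of 10 (Gadd45a at 0.67, adjusted p = 0.0183). Against APOE44, with the same KO libraries, 10 of 30 other mitotic genes were called higher and 3 lower, with a median of 0.50 beside 0.01 over all genes, where 22.7% of all genes were called (11.0% higher, 11.8% lower).

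In KO against APOE33 microglia, p53 target genes had the most calls among the 7 lists, 5 higher and 2 lower of 10, with a median of 0.27, where 22.7% of all genes were called (10.9% higher, 11.9% lower). Zmat3 gave 0.48 (adjusted p = 0.000515), Phlda3 0.73 (adjusted p = 0.00126) and Ccng1 0.42 (adjusted p = 0.00506). Mdm2, of the same list, went the other way, at 157.8 to 173.8 CPM in KO and 177.0 to 197.4 in APOE33, without overlap. Of 8 CDK inhibitors 2 were called higher: Cdkn2a, which encodes p16 and ARF, was 21.8 to 41.4 CPM in APOE33 and 70.0, 43.8, 50.8 and 63.7 in KO, without overlap (0.77, adjusted p = 0.00509), and Cdkn2b gave 0.46 (adjusted p = 0.0402). Of 30 fork and origin genes 4 were called, all lower (median -0.23), among them the clamp loader subunit Rfc3 (-0.37, adjusted p = 0.00545) and the single-strand binding protein Rpa2 (-0.39, adjusted p = 0.00941). Of 30 other mitotic genes 1 was called higher, the phosphatase Cdc25b (0.65, adjusted p = 0.00248), and 3 lower, with a median of -0.63 beside -0.02 over all genes. The D cyclin and RB list had 1 lower of 10 (Rbl1), the E2F and DREAM list 2 lower of 13 (Lin37 and Lin9), and the condensins 1 higher of 8 (Ncapg2 at 0.54). Except for the p53 targets and the CDK inhibitors, these shares of a list called lie below 22.7%.

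Comparisons with WT carry the batch with the genotype. In KO against WT astrocytes 11 of 35 genes were called, 9 higher and 2 lower, where 38.3% of all genes were called (19.4% higher, 18.9% lower), with a median of 0.24 beside 0.00. Ube2c differed by 2.59 (SE 0.57, adjusted p = 0.00124), Ccnb2 by 1.78 (SE 0.40, adjusted p = 0.00152), Kif20a by 1.03 (SE 0.20, adjusted p = 0.00033) and Mki67 by 1.08 (SE 0.36, adjusted p = 0.0222). Mcm6 differed by -0.20 (SE 0.08, adjusted p = 0.0480) and Pcna by -0.16 (SE 0.05, adjusted p = 0.0201). Without KO replicate 1, 20 genes were called, and without KO replicate 2 or 3, 6 were.

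In APOE44 against WT astrocytes 11 genes were called, 2 higher and 9 lower, where 41.7% of all genes were called (20.6% higher, 21.1% lower), with Mcm3 at -0.53 (adjusted p = 0.000809), Cdk1 at -0.40 (adjusted p = 0.00905) and Mcm6 at 0.26 (adjusted p = 0.0045). Without WT replicate 2 or 5 there were 6, and without WT replicate 4 or APOE44 replicate 1 or 2 there were 7. In APOE33 against WT astrocytes 3 were called, where 39.0% of all genes were, with Birc5 at -0.55 (adjusted p = 0.00482), Tyms at 0.43 (adjusted p = 0.00518) and Mcm6 at 0.22 (adjusted p = 0.0168). Without APOE33 replicate 2 there were 8, and without APOE33 replicate 4 there were 5.

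In microglia, 3 S phase genes were called against WT in each of the 3 batch 1 genotypes. Mcm6 was 68.2 to 102 CPM (median 96.8) in WT microglia, above every library of the other 3 genotypes, and differed by -0.64 (adjusted p = 1.87e-06) in APOE33, -0.57 (adjusted p = 6.99e-06) in APOE44 and -0.90 (adjusted p = 1.99e-07) in KO. Pcna was 184 to 213 CPM in WT, also above every other library, and differed by -0.44, -0.33 and -0.25, with adjusted p-values of 7.82e-07, 2.43e-05 and 0.00156. Mcm3 was 27.2 to 30.9 CPM in WT and 34.7 to 45.0 in APOE33, and differed by 0.40 (adjusted p = 0.00041), 0.38 (adjusted p = 0.000614) and 0.24 (adjusted p = 0.0373). The Mcm3 call in KO was lost in 6 of 10 fits that left out 1 library (KO replicate 2 or 3, or WT replicate 2, 4, 5 or 6), with an adjusted p of up to 0.178. These 3 comparisons share the WT libraries.

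Called genes numbered 5 of 35 in APOE33, 4 in APOE44 and 4 in KO against WT microglia, where 44.8%, 45.4% and 42.4% of all genes were called. Mki67 gave 0.43 (SE 0.48, adjusted p = 0.499), 0.62 (SE 0.48, adjusted p = 0.310) and 0.09 (SE 0.57, adjusted p = 0.915) in the 3 comparisons, so no difference in it was detectable over the spread of microglia libraries. The median over the 35 genes in KO against WT microglia was -0.08, and it was 0.30 without KO replicate 1 and -0.52 without KO replicate 2. Leaving out WT replicate 2, 4, 5 or 6, or APOE33 replicate 1 or 3, took the APOE33 count from 5 to 3.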

How the data were processed

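The authors deposited unnormalized read counts per gene for 44 libraries. Per the labels' protocols, libraries came from total RNA by an NEBNext Ultra kit and were read as pairs on an Illumina HiSeq. The submitters' processing notes name STAR 2.5.3a, featureCounts and edgeR 3.26.8; neither the mouse build nor its annotation is given in the sources used here. Of 54146 identifiers 54079 matched GENCODE M21, which gave symbols and GRCm38 positions. Between 62.4% and 78.7% of counts from 1 to 9 were even, so a count is not an independent molecule and CPM precision comes from replicates. Of 102 replicate pairs none was identical.

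Groups came from titles. Astrocyte APOE33 replicate 1 has a genotype tag of WT but is APOE33 in title and source and tagged batch 1. Mouse Apoe was at most 30.7 CPM in the 6 APOE33 astrocyte libraries, this one among them, and at least 4972 in WT astrocytes. The library stayed in APOE33. In R 4.3.3, edgeR 4.0.16 was used: filterByExpr, TMM scaling, robust quasi-likelihood F tests with sex as a covariate and Benjamini-Hochberg adjustment over all genes, called at 0.05. The batch 1 libraries of a cell type were fitted for contrasts within batch 1, all 22 for contrasts with WT, and both cell types together, with sex within cell type, for cell type and interaction contrasts. The SE is the log2 difference divided by the square root of F. CPM uses TMM library sizes over all 44 libraries, and log2 levels add 0.1. The scripts were tested on simulated data. Alternatives were DESeq2 1.42.0, DESeq2 size factors, no low-count filter, no sex covariate, a replicate block and leaving out each library.

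Replicate numbers were checked as pairs on genes with a mean of at least 1 CPM: between astrocytes and microglia, same-numbered pairs correlated over 0.1 in 6 of 6 WT, 6 of 6 APOE44, 4 of 4 KO and 4 of 6 APOE33 cases. By that measure the numbers pair the cell types except in APOE33. However, the same-numbered library was the best match of its genotype in only 9 of 22 cases, and all 22 pairs share sex. The block left 28 genes called between the cell types of WT and 30 in batch 1. The 35 genes, the 7 lists and the 7 marker lists were chosen with earlier results of these data known. Genes named with full values are up to 8 called genes of a comparison with the smallest adjusted p, and Mki67, Top2a, Ccnb1, Cdk1, Mcm2, Pcna and Cdt1 throughout; other lists give up to 3. Genes most alike had a mean log2 CPM of at least 1.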

Additional observations from a re-analysis of the deposited data

Results flagged for a closer look

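In 64 groups of 4 to 6 libraries, the highest or lowest library was compared with the others, where chance marks about 1 group in 20. Mki67 in astrocyte APOE44 replicate 6 stood apart at 5.62 CPM, with the other 5 libraries at 2.74 to 3.53. Cdt1 stood apart in the same library at 2.15 CPM, with the others at 0.759 to 1.27, as did the mean log2 level over the 35 genes, at 1.83 against 1.28 to 1.49. Mcm2 in astrocyte KO replicate 1 was 12.5 CPM, below 16.4 to 16.7 in the other 3 KO libraries. Cdt1 in microglia APOE33 replicate 3 was 46.1 CPM, above 34.1 to 37.3 in the other 5.

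The KO effect against APOE33 differed between microglia and astrocytes, by the edgeR interaction test, for Mcm7 (-0.68, adjusted p = 0.0250), Pcna (0.28, adjusted p = 0.0440) and Ccnb2 (-3.09, adjusted p = 0.0264). Mcm7 and Pcna were called within microglia and Ccnb2 within astrocytes.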

How the results depend on the processing

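Counts of the 35 genes called, each with the lowest and highest count over fits that left out 1 library, were as follows. In astrocytes KO against APOE33 gave 6 (1 to 13), KO against APOE44 11 (7 to 20), KO against WT 11 (6 to 20), APOE33 against WT 3 (2 to 8) and APOE44 against WT 11 (6 to 10). In microglia KO against APOE33 gave 3 (1 to 5), KO against APOE44 2 (1 to 5), APOE33 against WT 5 (3 to 5), APOE44 against WT 4 (3 to 5) and KO against WT 4 (3 to 6). The KO interaction gave 3 (0 to 13), and microglia against astrocytes 29 (29 to 31) in batch 1 and 28 (28 to 29) in WT. APOE44 against APOE33 was at 0 in both cell types and in the interaction in every alternative run. With no low-count filter the counts moved to 1 for KO against APOE33 in astrocytes, 6 for APOE44 against WT astrocytes, 1 for KO against APOE33 and 1 for KO against APOE44 in microglia, 3 for APOE33 against WT microglia and 1 for the KO interaction. DESeq2 gave 6 for APOE33 against WT astrocytes and 8 for the KO interaction. The fit with a replicate block gave 7 for KO against APOE44 astrocytes and 10 for the KO interaction, all lower and 2 of them among the 3 of the fit without it, and changed no other count by over 1.5 times; same-numbered libraries of different genotypes were not paired (r over 0.1 in 16 of 60 pairs, median -0.10). The cause of these shifts was not tested beyond the fewer libraries or the larger number of genes tested. Shares of all genes called are given for the main fits only, so the shifts are not read as particular to the 35 genes. Over all alternatives no named gene changed direction, and 147 values of named genes lost their call while 1165 kept their side of the threshold. Low levels limit Ube2c, Ccnb2 and Bub1 in astrocytes, which lie under 1 CPM outside KO.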
